A study of Homo sapiens with 6 samples.

Results

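The regions described here are CTCF peaks that have an interval of exactly 800 bp and share at least 1 bp with an H3K27ac peak. They were chosen by 2 measured properties of the deposited lists, the width of the CTCF interval and its overlap with H3K27ac, so neither property is a finding. The rule gave 4954 peaks, which are 34.0% of the 14563 CTCF peaks of 800 bp and part of 43430 distinct CTCF intervals on chromosomes 1 to 22 and X. They are called acetylated 800-bp peaks below, a name that refers only to the overlap with H3K27ac.

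Chromatin immunoprecipitation followed by sequencing was carried out on human neurons obtained through a neural progenitor stage from KOLF2.1J, an established reference line of induced pluripotent cells, with no treatment named in the labels. The 6 samples were 2 libraries with an antibody against CTCF, 2 with an antibody against H3K27ac and 2 inputs without antibody. All came from a single cell line, and nothing in the labels says whether the libraries of a pair came from separate cultures. The values were 1 peak list per antibody that covers its libraries together, so no spread between replicates, read depth or test over samples could be had, and the intervals given below cover counting error only. Peaks are not replicates. A check of the neuron label found an H3K27ac peak within 1 kb of a start of 8 of 9 neuron genes, 10 of 10 neural progenitor genes and 1 of 6 liver and muscle genes that had a start in the table used. It also found one at 4 of 5 astrocyte, 2 of 4 oligodendrocyte and 2 of 4 pluripotency genes. Of the 15 neuron genes listed, 6 had no start in that table, so the check is limited and does not separate neurons from other neural cells.

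CTCF is a zinc finger protein that binds a long, partly degenerate DNA motif and, with the cohesin complex, stands at the bases of chromatin loops. Acetylation of histone H3 at the lysine called K27, or H3K27ac, marks active promoters and enhancers. A CTCF peak in acetylated chromatin can therefore lie at a promoter, at an enhancer or at a loop anchor beside either.

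Promoter sequences are shown first because the peaks are often at gene starts and the motif content of those starts is the pattern that sets them beside stronger CTCF peaks. They are the 250 bases before a gene start whose RefSeq window of 300 bases (GRCh38.p14) lay wholly inside an acetylated 800-bp peak, printed 5′ to 3′ on the strand of the gene. The CTCF core searched reads CCA, any pair of bases, AG, any pair of bases, GGC, on either strand. It was found before 30 of these starts, and the starts in the 3 peaks of the highest CTCF signal value are given with the core in capitals. CPAP encodes a centriole protein, ATXN7L3-AS1 is an antisense RNA beside a subunit gene of the SAGA complex, and DCT encodes a melanin synthesis enzyme.
CPAP, chr13:24922862-24923111, minus strand: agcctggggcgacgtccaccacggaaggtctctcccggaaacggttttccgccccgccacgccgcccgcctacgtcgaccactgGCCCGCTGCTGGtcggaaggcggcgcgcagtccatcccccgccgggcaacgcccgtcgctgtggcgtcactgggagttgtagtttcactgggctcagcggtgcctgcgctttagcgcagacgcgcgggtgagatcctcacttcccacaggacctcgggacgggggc
ATXN7L3-AS1, chr17:44198590-44198839, plus strand: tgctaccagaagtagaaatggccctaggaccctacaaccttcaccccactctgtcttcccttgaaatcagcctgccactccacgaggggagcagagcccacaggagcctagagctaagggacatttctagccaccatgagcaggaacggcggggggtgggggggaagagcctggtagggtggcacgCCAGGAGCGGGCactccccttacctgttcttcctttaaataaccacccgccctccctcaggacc
DCT, chr13:94549407-94549656, minus strand: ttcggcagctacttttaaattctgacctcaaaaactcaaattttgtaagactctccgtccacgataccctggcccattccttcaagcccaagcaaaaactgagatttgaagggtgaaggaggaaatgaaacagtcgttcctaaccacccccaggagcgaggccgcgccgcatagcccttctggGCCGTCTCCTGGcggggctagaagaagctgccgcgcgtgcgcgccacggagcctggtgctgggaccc

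The peak at CPAP had a CTCF signal value of 62.8 and overlapped an H3K27ac peak of 29.0-fold enrichment. At ATXN7L3-AS1 the values were 47.9 and 16.2, and at DCT they were 46.1 and 13.9. The core lay within a G+C share of 70%, 59.6% and 56.4% of the printed bases in the same order. A match is a description of letters and not of binding.

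The next starts lay in the acetylated 800-bp peaks with the highest H3K27ac fold enrichment, followed by SIRT1, whose peak had the highest CTCF signal value among the listed genes with a window inside such a peak. Capitals mark the GC box GGGCGG on either strand, and none of the 4 sequences holds the CTCF core. NDC1 encodes a membrane nucleoporin, CYB561A3 a cytochrome b561 family protein, WAC an adaptor for histone H2B ubiquitination, and SIRT1 a protein deacetylase.
NDC1, chr1:53838297-53838546, minus strand: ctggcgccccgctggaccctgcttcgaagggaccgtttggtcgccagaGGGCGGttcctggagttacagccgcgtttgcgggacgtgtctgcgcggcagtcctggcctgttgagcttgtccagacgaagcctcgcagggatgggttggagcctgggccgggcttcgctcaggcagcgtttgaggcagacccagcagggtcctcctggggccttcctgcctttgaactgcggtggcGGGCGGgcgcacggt
CYB561A3, chr11:61361883-61362132, minus strand: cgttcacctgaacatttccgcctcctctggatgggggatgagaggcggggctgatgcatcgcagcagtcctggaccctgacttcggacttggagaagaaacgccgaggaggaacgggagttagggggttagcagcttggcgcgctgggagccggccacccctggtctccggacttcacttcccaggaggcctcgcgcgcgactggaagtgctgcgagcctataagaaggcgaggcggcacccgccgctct
WAC, chr10:28532529-28532778, plus strand: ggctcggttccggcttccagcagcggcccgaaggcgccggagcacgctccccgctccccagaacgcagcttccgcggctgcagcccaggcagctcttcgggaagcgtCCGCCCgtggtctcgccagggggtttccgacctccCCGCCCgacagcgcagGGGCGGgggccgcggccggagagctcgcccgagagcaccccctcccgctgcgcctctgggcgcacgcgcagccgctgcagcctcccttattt
SIRT1, chr10:67884406-67884655, plus strand: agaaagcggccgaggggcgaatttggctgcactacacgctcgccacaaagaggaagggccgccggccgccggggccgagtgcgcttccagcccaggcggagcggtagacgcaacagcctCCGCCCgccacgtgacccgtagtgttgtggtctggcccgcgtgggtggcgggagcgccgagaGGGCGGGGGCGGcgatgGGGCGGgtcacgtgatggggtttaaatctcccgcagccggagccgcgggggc

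Partner fold enrichments were 88.1 at NDC1, 86.9 at CYB561A3 and 81.4 at WAC, against CTCF signal values of 37.2, 26.8 and 40.9. SIRT1 had a partner of 21.5-fold and a CTCF signal value of 41.1. NDC1 held 2 GC boxes, CYB561A3 0, WAC 3 and SIRT1 4 in the printed bases.

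As a description of the values behind the rule, the CTCF signal value of the acetylated 800-bp peaks ran from 9.13 to 91.3 with a median of 31.7. The signal value is the authors' own number per peak, on a scale that the sources used here do not give. Its median was 37.9 in the 9609 peaks of 800 bp without H3K27ac. In the 7155 CTCF peaks of other widths that overlapped H3K27ac it was 153, and in the 21712 of other widths without H3K27ac it was 144. Of the acetylated 800-bp peaks, 1152 (23.3%) carried a q-value above 0.05, as did 934 of the 800-bp peaks without H3K27ac (9.72%). The label "weak" thus holds for the signal value in comparison with the other widths.

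The edges of the rule were sharp in width and gradual in overlap. Next to 800 bp the list held only intervals of 798, 799 and 804 bp, with signal values of 256, 323 and 220, and all 3 overlapped H3K27ac. Just inside the overlap limit, 12 peaks were covered over 1 to 10 bp, with a median signal value of 30.0. Just outside it, 23 peaks of 800 bp lay within 10 bp of an H3K27ac peak without sharing a base, with a median of 28.8.

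Acetylated 800-bp peaks often crowded together. In all, 1899 of them (38.3%) overlapped another CTCF peak, and 1630 lay in one of 749 stretches made of 2 to 5 such peaks that overlapped each other. Merging left 4073 separate stretches. A CTCF peak of another width was overlapped by 288 (5.81%). Of the CTCF peaks of other widths with H3K27ac, 499 (6.97%) overlapped another CTCF peak. The number of peaks is therefore not a number of independent sites.

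The share of 800-bp peaks that were acetylated, a property that the rule used, is described here by chromosome. The intervals count overlapping peaks as separate. Chromosome 19 had the highest share, 272 of 570 (47.7%, 95% Wilson interval 43.6 to 51.8%), and chromosome X the lowest, 98 of 445 (22.02%, 18.4 to 26.1%). The remaining chromosomes lay between 29.8% and 40.5%. The share on chromosome 17, which carries MAPT, was 40.5% (36.9 to 44.4%).

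The next comparison asked where these peaks lay relative to genes. Gene starts came from a RefSeq table of 34961 starts of 27195 genes on 22 chromosomes. Peaks on chromosome 8 were left out of the shares. Because the table gave starts for 15812 of the 19974 coding genes, some starts on the other chromosomes can be missed. Of 4767 acetylated 800-bp peaks on those chromosomes, 2458 had a start within 1 kb of the summit (51.6%, 95% Wilson interval 50.1 to 53.0%). Starts of coding genes accounted for 2264 of them (47.5% of all). The start was within 250 bp in 1272 peaks, while 679 peaks (14.2%) were more than 50 kb from any start in the table.

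Peaks of 800 bp without H3K27ac had a start within 1 kb in 545 of 9171 cases (5.94%), a difference of 45.6 percentage points (95% Newcombe interval 44.1 to 47.1) that had the same sign on 22 of 22 chromosomes. Because the rule itself asks for H3K27ac, the CTCF peaks of other widths with H3K27ac are the closer comparison. They had a start near in 3159 of 6862 cases (46.0%), 5.53 percentage points below the acetylated 800-bp peaks (95% Newcombe interval of the difference 3.68 to 7.37), on 19 of 22 chromosomes. The order turned when CTCF signal was held similar. At signal values from 40 to 60 the share was 46.5% of 1189 acetylated 800-bp peaks and 56.6% of 502 peaks of other widths with H3K27ac (difference -10.1 points, 95% Newcombe interval -15.2 to -4.85). It was also lower for the 800-bp peaks at values from 60 to 100, with 42.2% of 237 against 51.7% of 1455. With the CTCF summit inside an H3K27ac peak in both, the difference was -0.89 points (95% Newcombe interval -3.15 to 1.37). H3K27ac peaks that overlapped no CTCF peak had a start near in 19.9% of 63143 cases.

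The position around the start differed between the widths. Of the 2458 acetylated 800-bp peaks near a start, 1527 had the summit on the transcribed side (62.1%, 95% Wilson interval 60.2 to 64.0%), with a median position of 68 bp after the start. Among peaks of other widths with H3K27ac the share was 43.5% of 3159 (41.7 to 45.2%), with a median of -36 bp, that is, before the start. These 2 intervals did not meet. The middle 50% of positions ran from -131 to 348 bp in the former and from -187 to 224 bp in the latter.

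**Figure D1:**
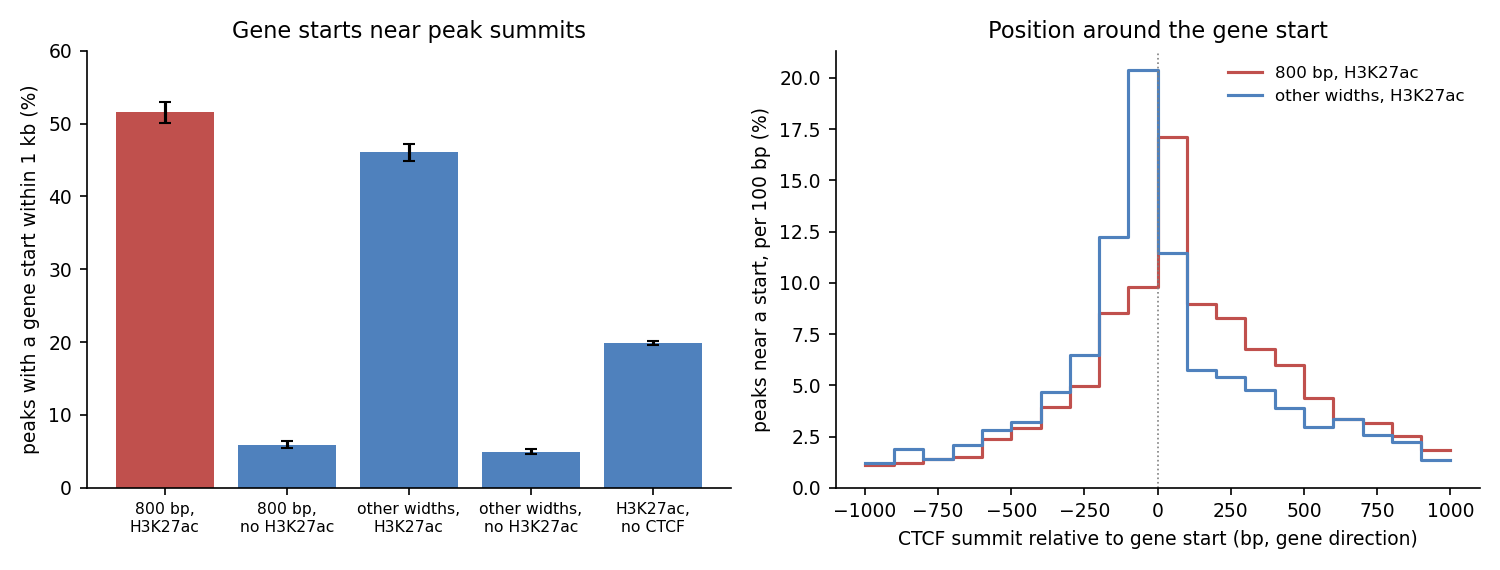
The left panel plots the percentage of peaks with a gene start within 1 kb of the summit in 5 classes of peaks, with bars for the share and error bars for 95% Wilson intervals. The right panel plots the position of the CTCF summit relative to the start in bins of 100 bp, as a percentage of the peaks near a start. Acetylated 800-bp peaks reach 51.6% and lie mostly after the start (median 68 bp), while peaks of other widths with H3K27ac lie mostly before it (median -36 bp).

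Among the acetylated 800-bp peaks, those with the weakest CTCF signal were most often at a gene start. Gene starts lay within 1 kb of 58.0% of the 1192 peaks in the lowest quartile of signal value (95% Wilson interval 55.1 to 60.7%). The share was 53.5% in the second quartile, 49.7% in the third and 45.1% in the highest (42.2 to 47.9%). The intervals of the lowest and highest quartiles did not meet, while neighbouring quartiles overlapped. The lowest quartile was made up mostly of peaks with a q-value above 0.05 (1097 of 1192, 92.0%), and no peak of the other quartiles had one. It also held the most peaks that overlapped another CTCF peak, 72.2% against 19.6% in the highest. The difference between the lowest and highest quartiles was 12.9 percentage points (95% Newcombe interval 8.92 to 16.9). With only peaks of q up to 0.05 and quartiles set again, it was 8.39 points (3.82 to 12.9), from 52.7% to 44.3%. With only peaks that overlapped no other CTCF peak, it was 9.47 points (4.39 to 14.5), from 50.6% to 41.1%. The median fold enrichment of the strongest H3K27ac peak each one overlapped, its partner, was 14.1 in the lowest quartile and 9.95 in the highest. In the same direction, a CTCF peak of another width lay within 10 kb in 45.6% of the lowest and 34.4% of the highest quartile.

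**Figure D2:**
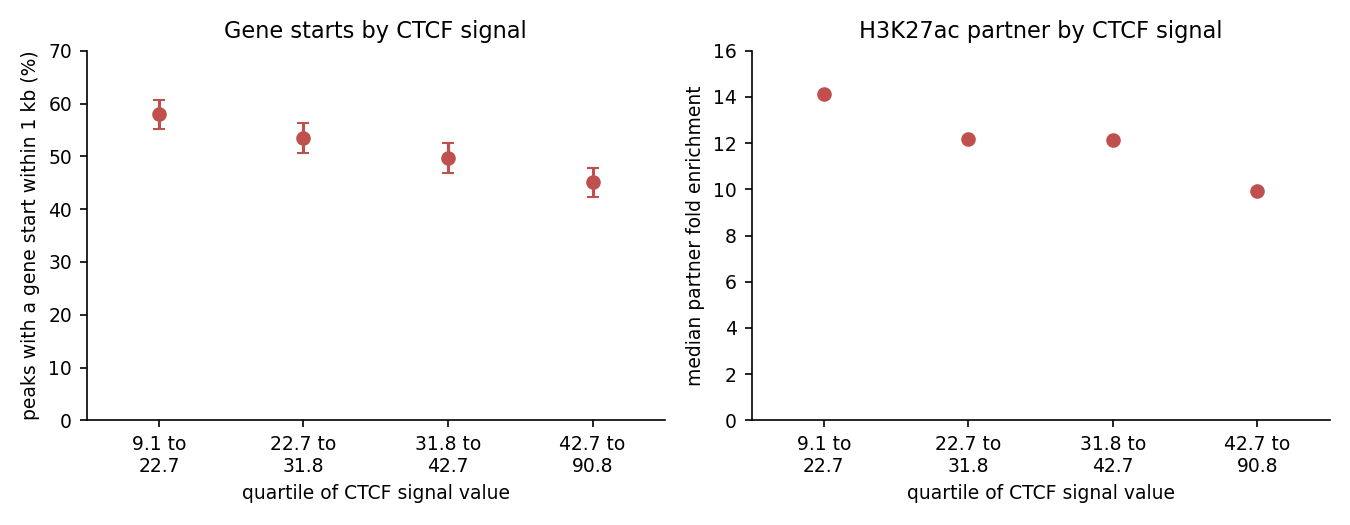
Both panels divide the acetylated 800-bp peaks on 22 chromosomes into quartiles of CTCF signal value, whose limits stand on the horizontal axis. Points give the percentage with a gene start within 1 kb, with 95% Wilson intervals (left), and the median H3K27ac fold enrichment of the partner (right). The percentage goes from 58.0 to 45.1 and the median from 14.1 to 9.95 between the lowest and highest quartiles.

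The H3K27ac peaks beneath them were broad and strong in their list. The median partner fold enrichment was 12.1 (quartiles 6.05 and 22.01) and its median width was 1052 bp, whereas the median fold enrichment over all H3K27ac peaks was 4.74. A partner above that median was present for 4096 peaks (82.7%). For CTCF peaks of other widths the median partner fold enrichment was 9.67, with a median width of 755 bp. Taken per H3K27ac peak, the 4694 that overlapped only acetylated 800-bp peaks had a median of 8.68, the 7582 that overlapped only other widths 7.49, and the 65885 without CTCF 4.50. A wide H3K27ac peak meets an interval more easily, and fold enrichment rises with width. In the widest quartile (707 to 13646 bp) the medians were 15.6, 16.3 and 10.6 in the same order, and in the narrowest (120 to 207 bp) they were 3.73, 3.86 and 3.62. Within a width quartile, H3K27ac peaks under 800-bp and other CTCF peaks thus had medians close to each other.

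**Figure D3:**
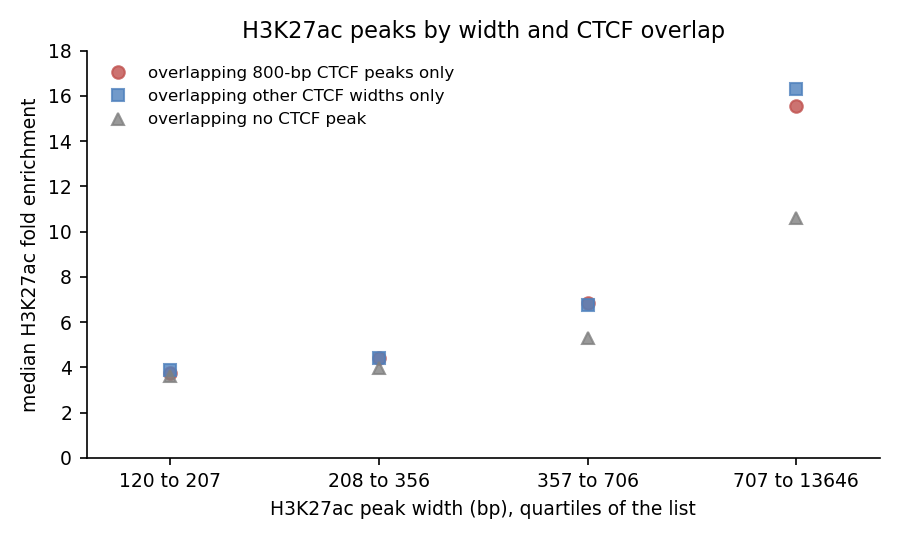
Points give the median H3K27ac fold enrichment (vertical axis) in 4 quartiles of H3K27ac peak width (horizontal axis, bp), for peaks that overlap only acetylated 800-bp CTCF peaks, only other CTCF widths, or no CTCF peak. In the widest quartile the medians are 15.6, 16.3 and 10.6, and in the narrowest they are 3.73, 3.86 and 3.62.

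The CTCF summit lay within H3K27ac more often in the 800-bp class. It was inside an H3K27ac peak for 3879 acetylated 800-bp peaks (78.3%, 95% Wilson interval 77.1 to 79.4%) and for 3816 CTCF peaks of other widths with H3K27ac (53.3%, 52.2 to 54.5%). A summit outside H3K27ac in a peak that overlapped 2 or more H3K27ac peaks was found in 326 acetylated 800-bp peaks (6.58%, 5.92 to 7.31%). In the other widths it was found in 978 (13.7%, 12.9 to 14.5%). These were parts of the 1075 and 3339 summits outside H3K27ac, so this contrast is not separate from that of summits inside. Whether H3K27ac lay on both sides of the summit was not checked. The whole interval was covered in 1657 acetylated 800-bp peaks (33.4%), and the median cover was 661 bp.

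Peaks away from gene starts had weaker partners. The 2309 acetylated 800-bp peaks with no start within 1 kb had a median partner fold enrichment of 8.38, against 16.1 in the 2458 near a start. Their median CTCF signal values were 33.2 and 30.4. Of the distant peaks, 1454 (63.0%) had the summit inside the interval of a coding gene, and 664 (28.8%) were in no coding or lncRNA gene. The table gives intervals without exons, so exonic and intronic positions were not told apart.

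Strong CTCF peaks were frequent neighbours. A CTCF peak of another width had its summit within 10 kb of 1903 acetylated 800-bp peaks (38.4%, 95% Wilson interval 37.1 to 39.8%), and of 2668 of the 800-bp peaks without H3K27ac (27.8%, 26.9 to 28.7%). The difference was 10.6 percentage points (95% Newcombe interval 9.03 to 12.3) and had the same sign on 22 of 23 chromosomes. The neighbour had the higher signal value in 1874 of the 1903 cases (98.5%), with a median of 123. For 800-bp peaks without H3K27ac this held in 2628 of 2668 cases (98.5%), with a median of 149. Where a neighbour lay within 10 kb, it was thus the stronger peak equally often in both classes of 800-bp peaks. Having such a neighbour was more frequent in the acetylated class.

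The promoter windows were then searched for motifs. Acetylated 800-bp peaks wholly contained 1393 windows of 1267 genes, some of which overlap. Their median G+C share was 67.7% and their median ratio of observed to expected CpG was 0.86. The medians over all 34789 windows were 58.7% and 0.58, those in CTCF peaks of other widths with H3K27ac were 68.0% and 0.86, and those in H3K27ac peaks without CTCF were 64.3% and 0.82.

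The CTCF core, the pattern in capitals at CPAP and DCT, was rare in them. It occurred in 35 of 1393 windows (2.51%, 95% Wilson interval 1.81 to 3.47%), close to the 2.42% of all windows. In CTCF peaks of other widths with H3K27ac it occurred in 117 of 972 windows (12.04%, 10.1 to 14.2%), a difference of -9.52 percentage points (95% Newcombe interval -11.8 to -7.40). At CTCF signal values from 40 to 60 the difference was -3.59 points and its interval held 0 (-25.7 to 2.05), with 9 of 338 windows in acetylated 800-bp peaks against 1 of only 16 in other widths. A difference at similar signal was thus not detectable with these windows. The share was 29.7% of 229 windows in other widths without H3K27ac, 4.78% of 209 in 800-bp peaks without H3K27ac (2.62 to 8.58%) and 1.52% of 5118 in H3K27ac peaks without CTCF (1.22 to 1.90%). A window inside a narrower interval lies closer to the summit. With windows that hold the summit, the shares were 2.99% of 938 for acetylated 800-bp peaks and 9.96% of 1667 for other widths with H3K27ac. Allowing 1 mismatch, 40.1% of the windows in acetylated 800-bp peaks held the core, against 66.4% in other widths with H3K27ac, 33.3% in H3K27ac peaks without CTCF and 32.9% of all windows. By quartile of CTCF signal value the share was 2.51% in the lowest (1.32 to 4.70%) and 2.48% in the highest (1.26 to 4.81%). No match says only that these letters are not in these windows.

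Among motifs of general promoter factors, the GC box was the most frequent. The GC box GGGCGG, bound by SP and KLF factors, was in 76.2% of the windows in acetylated 800-bp peaks (95% Wilson interval 73.9 to 78.3%), 71.9% in other widths with H3K27ac, 62.2% in H3K27ac peaks without CTCF and 44.9% of all windows. The difference from other widths with H3K27ac was 4.25 percentage points (95% Newcombe interval 0.67 to 7.88). The ETS motif CCGGAAG was in 19.96%, 20.9%, 16.8% and 10.2% in the same order. The NRF1 motif GCATGCGC was in 6.03%, 6.48%, 4.55% and 3.02%, and the YY1 motif AAGATGGCG in 4.45%, 4.12%, 3.91% and 1.76%. The NFY motif CCAAT was in 33.8% of the windows in acetylated 800-bp peaks and 23.8% in other widths with H3K27ac, a difference of 10.0 percentage points (95% Newcombe interval 6.35 to 13.6). It was in 34.6% of all windows and 27.4% in H3K27ac peaks without CTCF. The AP-1 motif TGANTCA was in 3.45% and 4.01% of the windows with a CTCF peak, below the 7.69% of all windows. The CRE TGACGTCA was in 3.45% and 2.67% against 1.84% of all windows. The ZNF143 motif ACTACAATT and the RFX motif GTTGCCATG were under 1% in both. Both strands were searched throughout, and overlapping matches counted once per window.

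**Figure D4:**
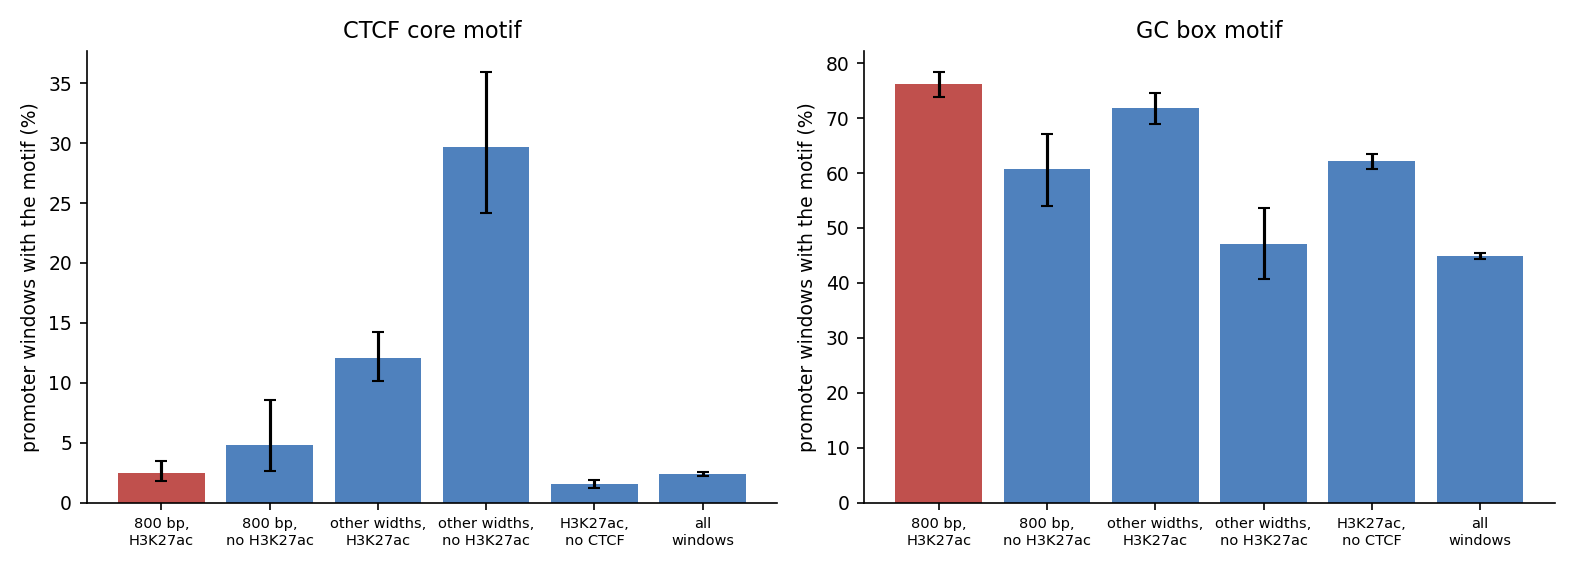
Bars give the percentage of 300-base promoter windows with the CTCF core (left) or the GC box (right) in 6 classes of windows, with 95% Wilson intervals. The core is in 2.51% of windows inside acetylated 800-bp peaks and 12.04% inside other widths with H3K27ac, while the GC box is in 76.2% and 71.9%.

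Gene lists were then read against the whole table. A summit of an acetylated 800-bp peak lay within 1 kb of a start of 2437 of 27195 genes (8.96%), and of 17.7% of the 13759 genes with an H3K27ac peak within 1 kb of a start. CTCF peaks of other widths with H3K27ac lay at 13.3% of all genes. The 2 sets shared 341 genes, which is 14.0% of the former and 9.44% of the latter. By kind, 1935 coding genes (12.2%) and 502 lncRNA genes (4.41%) had an acetylated 800-bp peak at the start.

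Immediate early genes, a list of transcription factor and regulator genes many of which are induced within minutes of stimulation, had such a peak at 6 of 14 starts (42.9%). The share was 8.96% of all genes and 17.7% of genes with H3K27ac at the start. An H3K27ac peak was near 13 of the 14. Counted instead at either end of the gene interval, 5 of all 16 listed genes had an acetylated 800-bp peak, without NR4A1. No share over all genes was computed for that measure. The list was chosen with earlier results of these data known. The 6 with a peak near a start were the AP-1 subunit genes FOSB, FOSL2, JUN, JUNB and JUND and the nuclear receptor gene NR4A1. JUND had the highest CTCF signal value among them, 55.4, in a peak on chromosome 19 from 18281706 to 18282505, with the summit 484 bp before the start and a partner of 23.7-fold. FOSL2 followed with 52.0 and a partner of 36.9-fold, on chromosome 2 from 28391886 to 28392685. FOSB had a signal value of 35.5 and a partner of 38.7-fold, and NR4A1 had 36.8 with a partner of only 4.06-fold. JUN had a pair of overlapping peaks before the start with signal values of 26.0 and 19.3, and JUNB a pair after it with 27.9 and 21.4. The weaker peak at JUN and that at JUNB had q-values above 0.05 (−log10 q of 0.95 and 1.28).

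Genes of histone acetylation had a peak at 4 of 15 starts (26.7%). All 15 had H3K27ac at the start, and the share over all such genes was 17.7%. BRD2, which encodes a reader of acetylated histones, had 2 acetylated 800-bp peaks, with signal values of 44.4 and 39.1 under the same H3K27ac peak of 36.1-fold. The acetyltransferase genes KAT2B and KAT6B had signal values of 53.6 and 30.7 and partners of 11.8-fold and 40.8-fold, and the fourth gene was SIRT1. All 14 genes of CTCF and cohesin had H3K27ac at the start, and 2 of them (14.3%) had an acetylated 800-bp peak, near the same 17.7%. These were MAU2 and WAPL, whose products load and release cohesin. Their signal values were 13.6 and 14.9, with −log10 q of 0.24 and 0.37 (q-values above 0.05), and their partners were 59.1-fold and 24.6-fold.

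Among 19 genes of RNA polymerase II and its general factors, POLR2F, POLR2L and GTF2F1 had an acetylated 800-bp peak. Among 22 genes of the mitochondrial ribosome, MRPL1, MRPL16 and MRPS7 did. Every gene of both lists had H3K27ac at the start, and 3 genes in each list is about the number that the 17.7% found for such genes would give. POLR2L had the strongest partner of the former group (42.1-fold) and MRPS7 that of the latter (47.6-fold).

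Too few cell type genes had such a peak to set them apart from all genes, and the comparison depended on the base. Over the 8 lists of cell type genes it was at 4 of 52 genes with a start in the table (7.69%, against 8.96% of all genes). Of the 36 with H3K27ac at the start it was at 11.1%, below the 17.7% of all genes with H3K27ac at the start. None of the 9 neuron genes with a start in the table had an acetylated 800-bp peak, and 8 of them had H3K27ac there. So few genes cannot be set apart from the shares over all genes. Among 10 neural progenitor genes, NOTCH1, a receptor gene, and HES5, a Notch target, had a peak near 1 kb before the start, with signal values of 45.9 and 34.0 and partners of 21.6-fold and 6.03-fold. GRIN2B, a glutamate receptor subunit gene, was the only one of 7 excitatory genes, with a pair of overlapping peaks of signal values 22.9 and 13.9. The weaker of the pair had a −log10 q of 0.27 (q-value above 0.05). ALDH1L1 was the only one of 5 astrocyte genes, with a partner of 4.39-fold. None of 7 inhibitory, 4 oligodendrocyte, 4 pluripotency and 6 liver and muscle genes had one. Peaks were also counted at either end of the gene interval, which covers genes without a start in the table. No share over all genes was computed for that measure, so its count has no base here. By it, 8 of all 79 cell type genes had a peak (10.1%). These were the neuron genes NEFM, a neurofilament gene, and NCAM1, a cell adhesion gene, the progenitor genes HES5, NOTCH1 and SOX9, and DLX5, SLC1A3 and SALL4. GRIN2B and ALDH1L1 were not among them, because the start beside their peak is not an end of the interval.

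**Figure D5:**
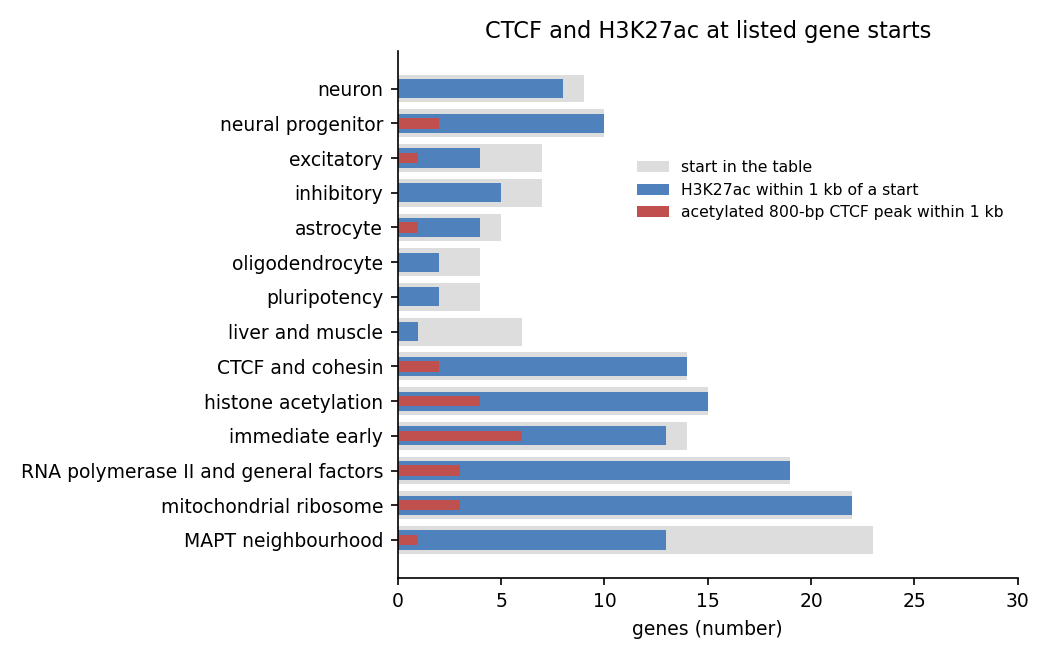
Horizontal bars count the genes of 14 lists: grey for those with a start in the table, blue for those with an H3K27ac peak within 1 kb of a start, and red for those with the summit of an acetylated 800-bp CTCF peak within 1 kb. Red reaches 6 of 14 for immediate early genes and 0 of 9 for neuron genes. The share is 8.96% over all genes with a start and 17.7% over genes with H3K27ac there. The neuron list is too short to be set apart from either share.

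Around MAPT, the gene of the microtubule-associated protein tau whose regulation the wider study addressed, no acetylated 800-bp peak was found in the gene. Positions were counted from the summit of the strongest H3K27ac peak in MAPT. Within 1 Mb either side, 19 of 69 CTCF peaks had the width of 800 bp, and 6 of them were acetylated. The nearest lay at -311 kb, where a minus sign means lower coordinates, on chromosome 17 from 45584447 to 45585246. It had a partner of 16.2-fold and a CTCF signal of 28.5. At -578 kb a peak stood 529 bp before the start of MAP3K14, which encodes a kinase of the NF-kappaB pathway, with a signal value of 39.8 and a partner of 16.4-fold. It was the only one of the 6 within 1 kb of a start and the only one among the 23 genes of the MAPT neighbourhood with a start in the table. The others lay at -979, -784, -524 and 372 kb, with signal values of 42.8, 26.1, 34.6 and 29.8. The last was inside LRRC37A, a member of a duplicated gene family, where reads may not map to a single copy.

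The extremes of the class joined weak CTCF with very different acetylation. The highest partner fold enrichments were at NDC1 and CYB561A3 (above), then at SS18, a subunit gene of the BAF chromatin remodelling complex, with 86.6, and at EIF4ENIF1, the gene of an eIF4E transport factor, where a pair of overlapping peaks shared a partner of 84.0. The CTCF signal value was 20.3 at SS18 and 25.4 and 19.7 at EIF4ENIF1. The peak at SS18 and the weaker peak at EIF4ENIF1 had q-values above 0.05 (−log10 q of 1.11 and 1.01). The lowest CTCF signal value, 9.13, belonged to a peak in RPH3AL on chromosome 17 from 348984 to 349783 with a partner of 4.19-fold. A peak in ZBTB2, a zinc finger gene, on chromosome 6 from 151389815 to 151390614 rounded to the same 9.13, and its partner had 71.8-fold. The next lowest were in DNAH9 and SP8 and between genes on chromosome 12, with signal values from 9.17 to 9.19 and partners of 11.6-fold, 9.40-fold and 4.03-fold. These 5 peaks of lowest signal had −log10 q from 0.0048 to 0.0059, far above a q-value of 0.05, so they stand at the floor of the CTCF list.

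The highest CTCF signal value, 91.3, lay on chromosome 8 from 24998155 to 24998954 with a partner of only 3.10-fold. It was followed by a peak in KIF17, a kinesin gene, on chromosome 1 from 20711529 to 20712328 (90.8, partner 9.88-fold) and a peak in FPASL on chromosome 7 from 76318435 to 76319234 (88.4, partner 27.6-fold). A peak in MRPL10 on chromosome 17 (84.0, partner 11.1-fold) and a peak in GAS1, a Hedgehog co-receptor gene, on chromosome 9 (83.2, partner 27.2-fold) came next. All coordinates are 1-based positions in hg38.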

How the data were processed

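Per the submitters' processing notes, cutadapt 1.16 was used in a role not stated and the build was hg38. The aligner, the peak caller and its settings are not given in the sources used here. The deposited CTCF list holds a signal value per peak on an unstated scale, and the deposited H3K27ac list a fold enrichment (read as a ratio from its values). Significance in both deposited lists is given as −log10 q, and a deposited score was not used. The number of per-sample value columns not used was 0.

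Repeated intervals were counted once, chromosome Y was left out, and overlap meant at least 1 bp. Gene intervals and starts came from RefSeq tables of GRCh38.p14. Shares have 95% Wilson intervals and differences 95% Newcombe intervals (statsmodels 0.14.6, Python 3.11.15). Functions were tested on simulated data. The members, gene lists and motifs were chosen with earlier results of these data known. Named peaks were the 5 with the highest partner fold enrichment, the 5 with the highest and the 5 with the lowest CTCF signal, those within 1 Mb of MAPT and those within 1 kb of a listed gene's start. Peaks at BRD2 and other genes with several starts were measured from the nearest start. Alternatives covered overlap, thresholds, distances, genes counted and motif matching.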

Additional observations from a re-analysis of the deposited data

How the results depend on the processing

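No paired analysis was possible because the replicates of an antibody share 1 list, and leaving out a replicate was not run for the same reason. Of 45 alternatives, 15 stayed within the interval of the reported value, 28 moved outside it and 2 reversed it. The 14 comparisons between widths or signal quartiles, summit-holding windows, stretches and gene ends were added after seeing the data. A longer or shorter distance changes a share by definition, and the cause of the other moves was not tested.

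Overlap with H3K27ac among 800-bp peaks (34.0%) was 26.2% with at least 50% covered, 26.6% with the summit inside, 15.2% with 100 bp either side of each summit, 32.7% for H3K27ac q of at most 0.01, 28.1% for the strongest 50% of H3K27ac peaks, 30.5% for CTCF q of at most 0.05 and 26.9% for peaks that overlap no other CTCF peak. The gene start share (51.6%) was 39.8% within 500 bp, 57.8% within 2 kb, 47.5% for coding genes, 55.7% with the summit inside H3K27ac, 49.5% for CTCF q of at most 0.05, 46.3% for peaks that overlap no other CTCF peak and 54.3% for either end of a gene interval on all chromosomes. The share with a CTCF peak of another width nearby (38.4%) was 26.6% within 5 kb, 54.8% within 20 kb and 33.6% for peaks that overlap no other CTCF peak. The median partner fold enrichment (12.1) was 11.1 for the longest overlap, 14.5 with the summit inside, 12.7 for partner q of at most 0.01, 6.002 for partners between the quartiles of width and 8.38 away from gene starts. The CTCF core share (2.51%) was 40.1% with 1 mismatch.

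The difference in gene start share between acetylated 800-bp peaks and other widths with H3K27ac (5.53 points) reversed to -10.1 at CTCF signal values from 40 to 60. With the summit inside H3K27ac it was -0.89, with an interval that held 0 (-3.15 to 1.37). It was 2.88 with either gene end. Between the lowest and highest quartiles of CTCF signal the difference (12.9 points) was 8.39 for CTCF q of at most 0.05. The difference in CTCF core share (-9.52 points) was -6.97 in windows that hold the summit, -26.3 with 1 mismatch and -3.59 at CTCF signal values from 40 to 60, where only 16 windows of other widths were left and the interval reached from -25.7 to 2.05.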

Other observations

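Small RNA genes were also found near acetylated 800-bp peaks. Intervals of tRNA genes lay within 1 kb of 41 summits (0.83%, 95% Wilson interval 0.61 to 1.12%), against 65 summits of other widths with H3K27ac (0.91%, 0.71 to 1.156%) and 6 summits of 800-bp peaks without H3K27ac (0.06%, 0.03 to 0.14%). Intervals of miRNA genes lay within 1 kb of 42 summits (0.85%), and of 57 in other widths with H3K27ac (0.80%). Both counts were thus close between the 2 CTCF classes with H3K27ac.

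Some H3K27ac peaks held several acetylated 800-bp peaks. Of the 5172 that overlapped any, 913 overlapped 2 or more, and 2 overlapped 5. These were an H3K27ac peak of 34.0-fold enrichment at CITED2, the gene of a transcriptional co-regulator that binds the acetyltransferases p300 and CBP, on chromosome 6 from 139372988 to 139377032, and one of 36.1-fold enrichment nearest to the start of IGF2BP3, the gene of an RNA-binding protein, on chromosome 7 from 23467662 to 23472455. They were chosen after their values were seen.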
